A study of Homo sapiens with 28 samples.

Results

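The genes described here are 9 human genes of fatty acid synthesis and desaturation: FASN, ACACA, ACLY, ACSS2, SCD, ELOVL5, ELOVL6, FADS1 and FADS2. They were chosen by gene symbol among the 35488 genes of the 48 h table, and all 9 passed the minimum for testing (a mean of at least 10 normalised counts over all libraries), as did 21025 genes in all. RNA-seq was run on SK-N-MC, an Ewing sarcoma cell line that carries the EWS-FLI1 fusion. Each group carried a doxycycline-inducible short hairpin RNA and received 100 ng/ml doxycycline for 24 or 48 h, so that the control cells also expressed a hairpin and were exposed to the drug. The knockdown groups were shFLI1, directed at EWS-FLI1, and shCHD4#1 and shCHD4#2, a pair of hairpins against CHD4, the chromatin remodelling ATPase of the NuRD complex, with 3 libraries for each hairpin and time. The controls carried shScramble, with 5 libraries at each time. A single cell line was used, and the sources used here do not say whether the hairpin lines were clones or pools. The labels speak of biological replicates, and the p-values below measure the spread between these libraries.

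Cells make fatty acids in the cytosol. Acetyl-CoA comes from citrate through ATP citrate lyase (ACLY) or from acetate through acetyl-CoA synthetase (ACSS2). Acetyl-CoA carboxylase (ACACA) turns it into malonyl-CoA in the committed step, and fatty acid synthase (FASN) builds palmitate. ELOVL6 extends saturated chains, stearoyl-CoA desaturase (SCD) places the first double bond, and FADS2, ELOVL5 and FADS1 act in turn on polyunsaturated fatty acids taken from the diet or the medium. In many cells the sterol regulatory element-binding proteins, encoded by SREBF1 and SREBF2, activate these genes, often together with the CCAAT-binding factor NF-Y.

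The recovered read totals lay between 46102707 and 64775441 per library, and the 9 genes took 0.113% to 0.249% of the reads. The targets were checked first. CHD4 averaged 2990 ± 240 normalised counts in shCHD4#1 and 3075 ± 351 in shCHD4#2 libraries, against 11550 ± 1236 in shScramble libraries at 24 h (SD, n = 3, 3 and 5). At 48 h CHD4 averaged 3189 ± 267 in shCHD4#1 and 2750 ± 44.1 in shCHD4#2 libraries, against 11605 ± 1563 in shScramble libraries. FLI1, whose reads in this line include those of the fusion, averaged 1856 ± 148 in shFLI1 and 4153 ± 408 in shScramble libraries at 24 h, and 1669 ± 141 in shFLI1 and 3783 ± 454 in shScramble libraries at 48 h. FLI1 also fell with shCHD4#2 at 48 h (log2 -0.34, limma adjusted p = 0.0291), and so did EWSR1, the other partner of the fusion (-0.39, limma adjusted p = 0.00873). In shFLI1 cells the CHD4 level rose at 24 h (0.34, limma adjusted p = 0.0176). One genotype label of the 48 h shScramble libraries names a CHD4 knockdown, against their titles and treatment label, and CHD4 stood there at the level of the 24 h controls. The libraries fell into 2 kinds. In 12 of them, numbered replicate 1 or 2 and carrying shScramble or a CHD4 hairpin, processed pseudogenes took 0.313% to 0.388% of the reads, against 0.223% to 0.283% in the other 16 libraries, which include every shFLI1 library. No label gives a batch. These 12 are called the first kind below and the others the second, and calls of the 9 genes that one kind lost or gained are given beside the result.

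In GENCODE 29 on GRCh38 the genes lie at chr17:82078333-82098332 on the minus strand (FASN), chr17:37084988-37406818 on the minus strand (ACACA), chr17:41866908-41930542 on the minus strand (ACLY), chr20:34872146-34927962 on the plus strand (ACSS2), chr10:100347124-100364834 on the plus strand (SCD), chr6:53267398-53349179 on the minus strand (ELOVL5), chr4:110045846-110199199 on the minus strand (ELOVL6), chr11:61799625-61829318 on the minus strand (FADS1) and chr11:61792980-61867354 on the plus strand (FADS2).

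Promoter sequence was taken from RefSeq (GRCh38.p14) to show what lies in front of the genes that changed most. The table matched 8 of the 9 genes, with 13 windows of 250 bases ending at an annotated start; FASN was not among them. The letters CCAAT, on either strand, occurred for 5 of the 8 genes and in 7 of 13 windows, against 32.0% of the 35116 windows of all genes. Shares over all genes are per window, and none was computed per gene. The ACLY windows overlap, so the same CCAAT sites are counted in each. CCCGCCC, the letters of a GC box, occurred for 6 of the 8 genes and in 9 of 13 windows, against 31.5% of all windows, and the E box CACGTG occurred for ELOVL5 alone, in 1 of 13 windows, against 6.34%. The sterol element core TCACNCCAC was found in none of the 13 windows, against 0.883% of all, the paired GGAAGGAA in none, against 3.06%, and the ETS letters CCGGAAGT in none, against 3.42%. A match describes letters in a window and is not evidence of binding. A single window per gene, cut to its longest stretch that overlaps no annotated exon, is shown for SCD and ACLY, which fell with shFLI1, and for ACSS2 and ELOVL6, which rose. Each is written 5′ to 3′ on the gene's own strand, with CCAAT, or the same site read on the other strand, in capitals. They cover chr10:100346983-100347123 on the plus strand for SCD, chr17:41919023-41919201 on the minus strand for ACLY, chr20:34874739-34874941 on the plus strand for ACSS2 and chr4:110198677-110198841 on the minus strand for ELOVL6, which holds no such site.
SCD: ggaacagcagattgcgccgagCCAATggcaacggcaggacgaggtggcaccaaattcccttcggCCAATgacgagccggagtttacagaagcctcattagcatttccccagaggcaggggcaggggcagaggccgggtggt
ACLY: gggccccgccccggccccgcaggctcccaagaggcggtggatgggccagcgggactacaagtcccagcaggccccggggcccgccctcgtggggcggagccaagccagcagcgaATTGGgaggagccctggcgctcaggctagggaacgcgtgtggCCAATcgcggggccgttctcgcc
ACSS2: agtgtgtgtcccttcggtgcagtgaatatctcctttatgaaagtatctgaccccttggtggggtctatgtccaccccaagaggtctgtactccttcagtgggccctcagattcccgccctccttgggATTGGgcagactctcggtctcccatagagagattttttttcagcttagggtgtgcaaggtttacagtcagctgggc
ELOVL6: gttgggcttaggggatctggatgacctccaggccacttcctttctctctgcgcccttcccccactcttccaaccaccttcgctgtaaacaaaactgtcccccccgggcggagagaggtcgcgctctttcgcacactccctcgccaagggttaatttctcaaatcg
The capitals in SCD lie 229 and 186 bases upstream of its start. Those in ACLY lie 136 and 94 bases upstream of the start at chr17:41918951, and 65 and 23 upstream of another annotated start at chr17:41919022. That in ACSS2 lies 123 bases upstream of the start at chr20:34874989. The window before another annotated ACSS2 start, at chr20:34876612, is not shown and holds no CCAAT.

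With shFLI1 the genes of bulk synthesis fell and a pair of low-level genes rose. At 48 h FASN, ACACA, ACLY and SCD were 1.93-, 1.87-, 2.11- and 3.08-fold lower in shFLI1 than in shScramble cells, while ACSS2 and ELOVL6 were 5.30- and 5.02-fold higher. With shCHD4#2 at 48 h SCD was 3.05-fold lower, FADS2 1.89-fold and FADS1 1.62-fold lower, and FASN was not called. The gene that moved most with shCHD4#1 at 48 h was ACSS2, 2.27-fold lower. In counts, a gene is called where the limma test passes an adjusted p of 0.05, and each percentage is the share of all tested genes called in that comparison. With shFLI1, 2 of the 9 genes were called higher and 4 lower at 24 h, where 46.7% of all genes were called (24.2% higher and 22.5% lower), and 2 higher and 6 lower at 48 h, where 63.9% were (32.2% higher and 31.7% lower). With shCHD4#1, 1 was called lower at 24 h, where 11.3% of all genes were called (5.21% higher and 6.14% lower), and 1 higher and 4 lower at 48 h, where 28.4% were (12.9% higher and 15.5% lower). With shCHD4#2, 1 was called higher and 2 lower at 24 h, where 11.1% of all genes were called (4.05% higher and 7.01% lower), and 1 higher and 5 lower at 48 h, where 37.9% were (17.5% higher and 20.3% lower). The CHD4 counts rested on few libraries: 0 of the 9 were called with shCHD4#1 at 24 h without its replicate 2, and 1 with shCHD4#2 at 24 h without its replicate 1 or 2. With shCHD4#1 at 48 h 2 were called without its replicate 1, and 3 without its replicate 2 or 3 or with the replicate block.

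All 3 libraries of a knockdown lay outside the range of the 5 shScramble libraries for 6 of the 9 genes with shFLI1 at 24 h, where this held for 45.1% of all genes, and for 7 at 48 h, where it held for 62.0%. It held for 2 of the 9 with shCHD4#1 at 24 h (18.0% of all genes) and for 4 at 48 h (31.1%). It held for 3 with shCHD4#2 at 24 h (16.7% of all genes) and for 7 at 48 h (34.7%). The median log2 fold change of the 9 genes was -0.57 with shFLI1, -0.33 with shCHD4#1 and -0.39 with shCHD4#2 at 48 h, where that of all tested genes was 0.01, -0.01 and 0.01. At 24 h it was -0.14, -0.09 and -0.01, against 0.00, -0.02 and 0.00 for all genes. The 3 knockdowns of a time share their 5 shScramble libraries, so their values are not independent of each other. In bulk RNA, a change in how many cells express a gene and a change in RNA per cell cannot be told apart.

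**Figure D1:**
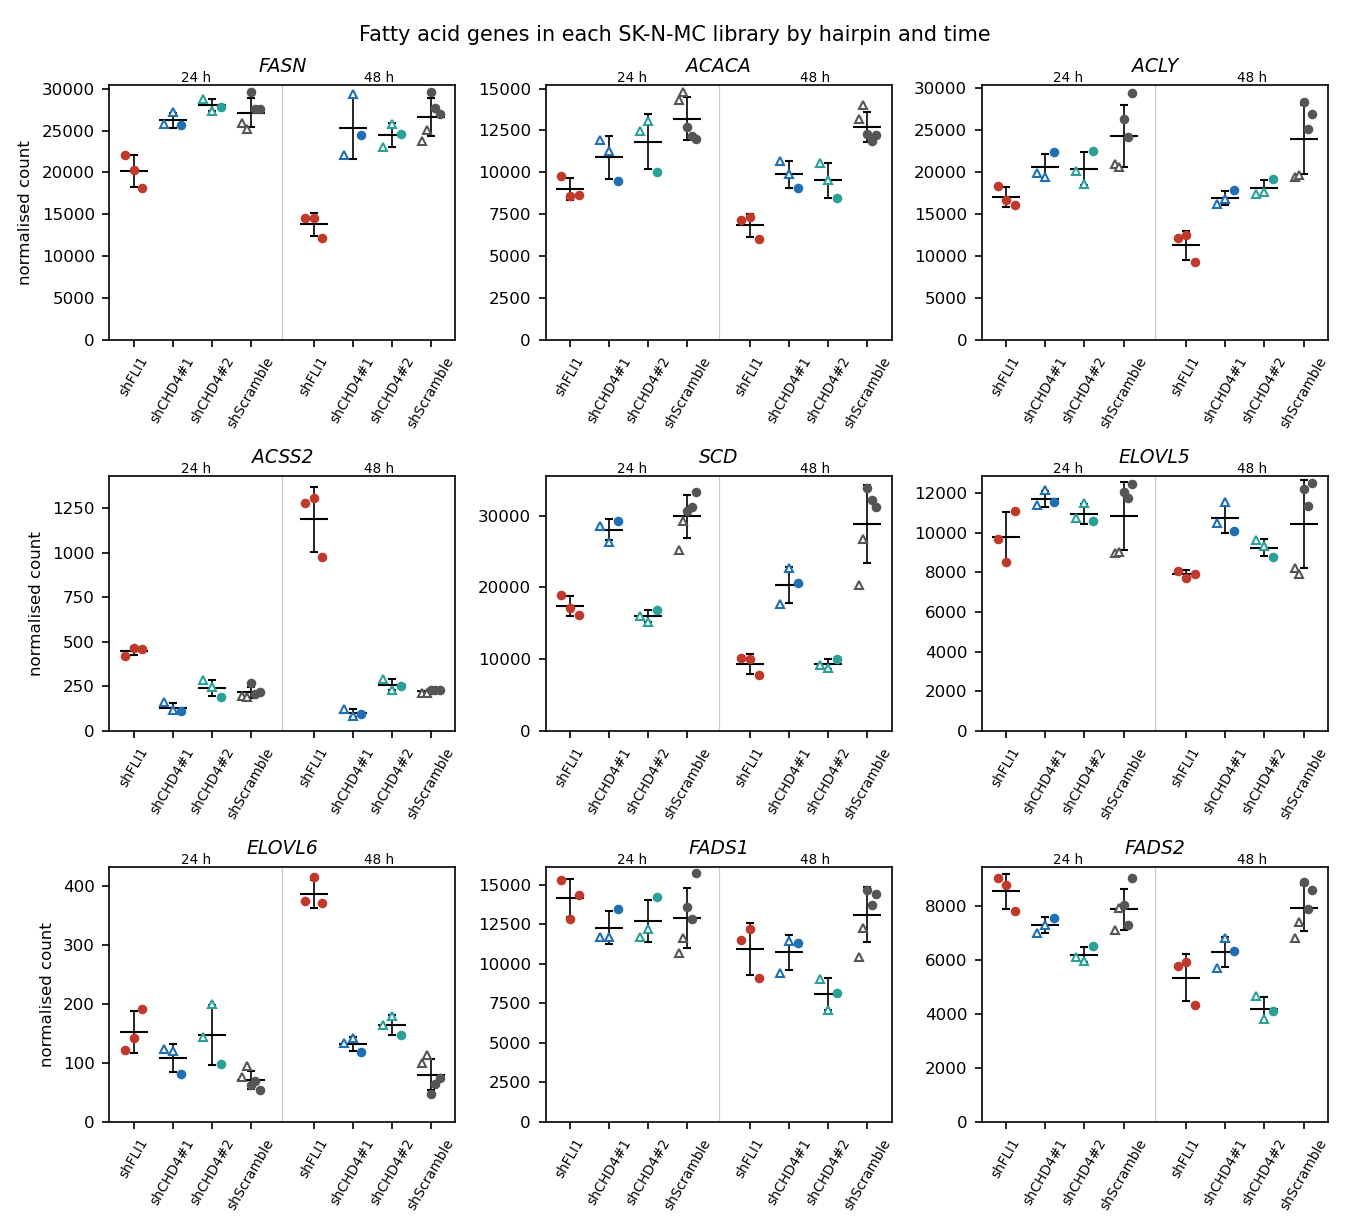
Normalised count of each gene in every library (y axis, from 0), by hairpin at 24 h and at 48 h. Open triangles are libraries of the first kind, filled circles of the second, and bars give mean and SD. ACSS2 stood at 978 to 1308 in shFLI1 at 48 h, above the shScramble libraries at 209 to 231, and SCD stood below them with shFLI1 and shCHD4#2.

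**Figure D2:**
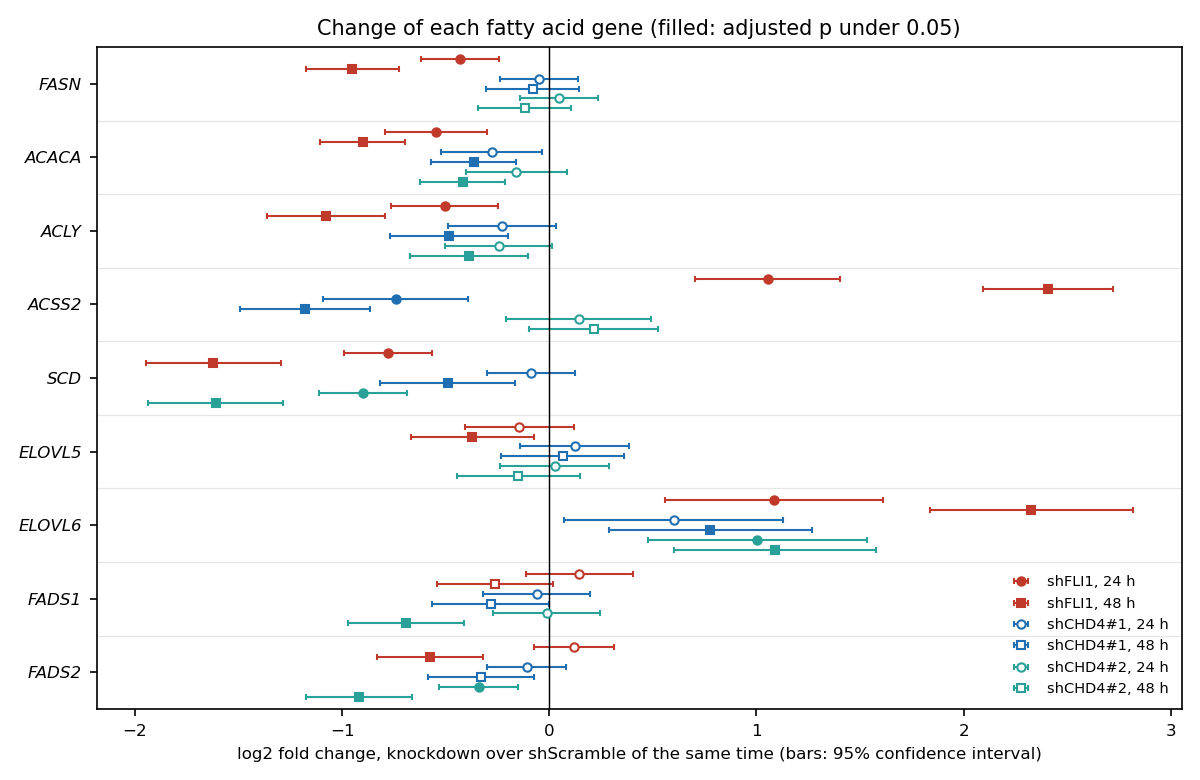
Log2 fold change of each gene in each knockdown against shScramble, with 95% confidence intervals; circles are 24 h, squares 48 h, and filled symbols passed an adjusted p of 0.05. SCD at 48 h lies at -1.62 with shFLI1 and -1.61 with shCHD4#2, against -0.49 with shCHD4#1.

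Of the suppliers of acetyl-CoA, ACLY fell and ACSS2 rose with shFLI1. ACLY had 12106, 12472 and 9305 normalised counts in shFLI1 libraries at 48 h, against 19473, 19636, 28347, 25149 and 26955 in shScramble libraries. The groups did not overlap at 48 h, and the log2 fold change was -1.08 ± 0.13 (SE, limma adjusted p = 6.17e-06). At 24 h ACLY had 18361, 16636 and 16030 in shFLI1 libraries, all below the 20668 to 29465 of shScramble libraries (log2 -0.51 ± 0.12, limma adjusted p = 0.00325). With the CHD4 hairpins ACLY averaged 16918 ± 844 in shCHD4#1 and 18064 ± 950 in shCHD4#2 libraries, against 23912 ± 4137 in shScramble libraries at 48 h. Both passed the test (log2 -0.48, limma adjusted p = 0.0144, and -0.39, limma adjusted p = 0.0327). Neither call held with replicate numbers as a block: the values were then -0.39 (limma adjusted p = 0.0855) with shCHD4#1 and -0.29 (limma adjusted p = 0.152) with shCHD4#2. The controls themselves split by kind, since ACLY averaged 19555 in the 2 first-kind and 26817 in the 3 second-kind shScramble libraries at 48 h. Among first-kind libraries alone neither hairpin passed (-0.25, limma adjusted p = 0.143, and -0.16, limma adjusted p = 0.255). Both passed among second-kind libraries (-0.59, limma adjusted p = 0.0287, and -0.48, limma adjusted p = 0.0456) and with library kind as a term (-0.41, limma adjusted p = 0.00675, and -0.31, limma adjusted p = 0.0209). With shCHD4#1 the call was also lost without its replicate 1 (-0.45, limma adjusted p = 0.0527) or 2 (-0.48, limma adjusted p = 0.0558), and with shCHD4#2 without any of its replicates (limma adjusted p = 0.0825, 0.105 and 0.0522 without 1, 2 and 3) or without shScramble replicate 3, 4 or 5 (limma adjusted p = 0.0713, 0.0629 and 0.0714).

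ACSS2, the acetate-using enzyme, went opposite ways with the hairpins. It had 1278, 1308 and 978 normalised counts in shFLI1 libraries at 48 h, against 210, 209, 231, 227 and 231 in shScramble libraries, and every shFLI1 library lay far above every control (log2 2.41 ± 0.15, limma adjusted p = 4.96e-09). At 24 h it had 420, 462 and 460 in shFLI1 libraries, against 197, 190, 267, 207 and 219 in shScramble libraries (log2 1.05 ± 0.16, limma adjusted p = 0.000107). The rise held at both times against the second-kind controls alone, at 0.96 and 2.35. With shCHD4#1 ACSS2 had 122, 80.8 and 92.9 at 48 h, all below the controls (log2 -1.18 ± 0.15, limma adjusted p = 6.56e-05), and 161, 116 and 112 at 24 h, again below them (-0.74 ± 0.16, limma adjusted p = 0.00938). These calls did not pass among first-kind libraries alone (-0.50 at 24 h, limma adjusted p = 0.165, and -1.07 at 48 h, limma adjusted p = 0.0695), where each group has 2 libraries, and passed among second-kind libraries (-1.03, limma adjusted p = 0.0209, and -1.30, limma adjusted p = 0.00188). The 24 h call was lost without shCHD4#1 replicate 2 (-0.67, limma adjusted p = 0.0677). With shCHD4#2 ACSS2 had 290, 231 and 253 at 48 h, at or above the highest controls, and did not pass (log2 0.21, 95% interval -0.10 to 0.53, limma adjusted p = 0.271). The ratio of ACSS2 to ACLY counts was 0.105 in shFLI1, 0.00586 in shCHD4#1 and 0.0143 in shCHD4#2 libraries at 48 h, against 0.00943 in shScramble libraries.

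ACACA, which makes malonyl-CoA, fell with shFLI1 at both times. It had 9759, 8601 and 8672 normalised counts in shFLI1 libraries at 24 h, against 14300, 14805, 12694, 12160 and 11991 in shScramble libraries (log2 -0.55 ± 0.11, limma adjusted p = 0.00123). At 48 h it averaged 6823 ± 707 in shFLI1 libraries, against 12715 ± 890 in shScramble libraries, with no overlap (log2 -0.90 ± 0.10, limma adjusted p = 1.39e-06). With shCHD4#1 at 48 h it had 10692, 9891 and 9066, and with shCHD4#2 10580, 9529 and 8482, against 13205, 14031, 12263, 11850 and 12224 in shScramble libraries. All 6 CHD4 knockdown libraries lay below all 5 controls (log2 -0.36 ± 0.10, limma adjusted p = 0.0112 for shCHD4#1, and -0.42 ± 0.10, limma adjusted p = 0.00346 for shCHD4#2). The shCHD4#1 call was lost without its replicate 3 (-0.30, limma adjusted p = 0.0628) and among first-kind libraries (-0.40, limma adjusted p = 0.0705), and passed among second-kind libraries (-0.42, limma adjusted p = 0.028). At 24 h shCHD4#1 gave -0.28 (limma adjusted p = 0.142), -0.36 with the replicate block (limma adjusted p = 0.019) and -0.33 among first-kind libraries (limma adjusted p = 0.0442), against -0.38 among second-kind libraries (limma adjusted p = 0.122). With library kind as a term ACACA passed at 24 h with shCHD4#1 (-0.35, limma adjusted p = 0.00133) and shCHD4#2 (-0.24, limma adjusted p = 0.0166).

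FASN, the synthase itself, fell with shFLI1 alone among the knockdowns tested against shScramble. It had 22030, 20347 and 18125 normalised counts in shFLI1 libraries at 24 h, against 25159 to 29580 in shScramble libraries (log2 -0.43 ± 0.09, limma adjusted p = 0.00107). At 48 h it had 14575, 14569 and 12209 in shFLI1 libraries, against 23734, 25080, 29649, 27676 and 27039 in shScramble libraries (log2 -0.95 ± 0.10, limma adjusted p = 1.88e-06). The groups did not overlap at either time. With shCHD4#1 FASN averaged 25289 ± 3701 and with shCHD4#2 24474 ± 1390 at 48 h, against 26635 ± 2300 in shScramble libraries, with overlapping groups. The 95% intervals of these log2 differences were -0.30 to 0.14 for shCHD4#1 and -0.34 to 0.10 for shCHD4#2. The difference between shFLI1 and the mean of the CHD4 hairpins was itself tested: FASN was lower with shFLI1 by a log2 difference of -0.43 ± 0.09 at 24 h (limma adjusted p = 0.000723) and -0.85 ± 0.10 at 48 h (limma adjusted p = 3.94e-06).

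SCD, which makes monounsaturated fatty acids, fell with shFLI1 and with shCHD4#2 at both times. At 24 h it had 18999, 17084 and 16194 normalised counts in shFLI1 libraries and 16024, 15188 and 16807 in shCHD4#2 libraries, against 25215, 29235, 30654, 31263 and 33279 in shScramble libraries. Both groups lay below all controls (log2 -0.78 ± 0.10, limma adjusted p = 1.95e-05 for shFLI1, and -0.90 ± 0.10, limma adjusted p = 9.06e-05 for shCHD4#2). At 48 h it had 10157, 9989 and 7735 in shFLI1 libraries and 9114, 8766 and 10052 in shCHD4#2 libraries, against 20328, 26782, 33811, 32154 and 31194 in shScramble libraries. The lowest control stood far above the highest library of either knockdown (log2 -1.62 ± 0.15, limma adjusted p = 3.88e-07, and -1.61 ± 0.15, limma adjusted p = 3.58e-06). The shCHD4#2 values were -1.38 among first-kind and -1.69 among second-kind libraries. With shCHD4#1 SCD had 28509, 26390 and 29317 at 24 h, among the controls (log2 -0.09, 95% interval -0.30 to 0.13), and 17626, 22709 and 20628 at 48 h (log2 -0.49 ± 0.15, limma adjusted p = 0.0263). That last call was lost with the replicate block (-0.39, limma adjusted p = 0.117), without shCHD4#1 replicate 1 (-0.39, limma adjusted p = 0.119) or 3 (-0.50, limma adjusted p = 0.0614), without shScramble replicate 3, 4 or 5 (limma adjusted p = 0.0597, 0.0575 and 0.0562), and among first-kind libraries (-0.22, limma adjusted p = 0.475). It passed among second-kind libraries (-0.65, limma adjusted p = 0.0152) and with library kind as a term (-0.42, limma adjusted p = 0.0215). The ratio of SCD to FASN counts was 0.381 ± 0.037 in shCHD4#2, 0.672 ± 0.034 in shFLI1 and 0.805 ± 0.036 in shCHD4#1 libraries at 48 h, against 1.08 ± 0.13 in shScramble libraries.

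ELOVL6, which lengthens palmitate to stearate, was read at a low level in controls and rose with all 3 targeting hairpins at 48 h. It had 373, 414 and 371 normalised counts in shFLI1 libraries, 134, 142 and 119 in shCHD4#1 libraries and 164, 180 and 146 in shCHD4#2 libraries, against 100.0, 113, 46.8, 64.4 and 74.2 in shScramble libraries. Every knockdown library lay above every control. The log2 fold changes were 2.33 ± 0.23 with shFLI1 (limma adjusted p = 6.21e-07), 0.78 ± 0.23 with shCHD4#1 (limma adjusted p = 0.0202) and 1.09 ± 0.23 with shCHD4#2 (limma adjusted p = 0.00195). The shCHD4#1 call was lost without its replicate 1 (0.76, limma adjusted p = 0.0561) or 2 (0.72, limma adjusted p = 0.0843) and among first-kind libraries (0.37, limma adjusted p = 0.372), where the controls stand at 100.0 and 113. The shCHD4#2 call was not passed there either (0.69, limma adjusted p = 0.089). Among second-kind libraries both passed (0.95, limma adjusted p = 0.0238, and 1.26, limma adjusted p = 0.00563). At 24 h ELOVL6 had 122, 142 and 191 in shFLI1 libraries and 143, 199 and 98.0 in shCHD4#2 libraries, against 75.1, 94.0, 62.8, 68.5 and 54.2 in shScramble libraries. Both were called (log2 1.09 ± 0.25, limma adjusted p = 0.00227, and 1.00 ± 0.25, limma adjusted p = 0.017), the second not without shCHD4#2 replicate 1 (0.99, limma adjusted p = 0.0512) or 2 (0.76, limma adjusted p = 0.134) and not among second-kind libraries (0.66, limma adjusted p = 0.261), while it passed among first-kind ones (0.999, limma adjusted p = 0.0282). ELOVL5, the elongase of polyunsaturated chains, had 8096, 7727 and 7942 in shFLI1 libraries at 48 h, against 8238, 7906, 12210, 11353 and 12525 in shScramble libraries. The low controls are the first-kind ones, and the groups overlapped. Its call (log2 -0.37 ± 0.14, limma adjusted p = 0.03) was lost without any shFLI1 replicate (limma adjusted p = 0.0599, 0.0835 and 0.0676 without 1, 2 and 3) and without shScramble replicate 3, 4 or 5 (limma adjusted p = 0.0688, 0.0633 and 0.0701). All shFLI1 libraries are of the second kind, and against the second-kind controls alone they did not overlap them (log2 -0.60, limma adjusted p = 2.47e-05); with library kind as a term the value was -0.46 (limma adjusted p = 0.00624). At 24 h shFLI1 likewise passed among second-kind libraries (-0.32, limma adjusted p = 0.03) and not in the fit of all libraries.

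In the 5 other knockdown groups ELOVL5 was not called over all libraries, with log2 values of -0.15 to 0.12, but its direction with the CHD4 hairpins went with library kind. Among first-kind libraries it was higher with shCHD4#1 at 24 h (0.39, limma adjusted p = 0.0278) and 48 h (0.45, limma adjusted p = 0.0491) and with shCHD4#2 at 24 h (0.30, limma adjusted p = 0.0449), with 0.23 for shCHD4#2 at 48 h (limma adjusted p = 0.153). Among second-kind libraries the same 4 values were -0.06 (limma adjusted p = 0.852), -0.25 (limma adjusted p = 0.0559), -0.19 (limma adjusted p = 0.56) and -0.45 (limma adjusted p = 0.00404), the last of them called.

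FADS2 and FADS1 carry out the desaturations of polyunsaturated fatty acids and lie on opposite strands of chromosome 11. The annotated span of FADS1 lies within that of FADS2. In GENCODE 29 they share 490 exon bases, 4.79% of the exon length of FADS1 and 4.44% of that of FADS2, and FADS2 shares 49 with FEN1. The strand setting of the counting was not given in the sources used here, so how reads in the shared bases were counted is not known. FADS2 had 4667, 3789 and 4096 normalised counts in shCHD4#2 libraries at 48 h, against 6812, 7385, 8896, 7895 and 8600 in shScramble libraries, without overlap (log2 -0.92 ± 0.12, limma adjusted p = 4.96e-05). FADS1 had 9055, 7063 and 8182 in shCHD4#2 libraries, against 10451, 12289, 14696, 13734 and 14460 in shScramble libraries, also without overlap (log2 -0.69 ± 0.13, limma adjusted p = 0.00093). FADS2 kept its call among first-kind libraries (-0.75), and FADS1 did not (-0.50, limma adjusted p = 0.0844); among second-kind libraries both passed (-1.05 for FADS2 and -0.80 for FADS1). With shFLI1 at 48 h FADS2 had 5753, 5933 and 4339, below all controls (log2 -0.57 ± 0.12, limma adjusted p = 0.000713), while FADS1 averaged 10946 ± 1633 in shFLI1 libraries, against 13126 ± 1766 in shScramble libraries, with overlap (log2 -0.26, limma adjusted p = 0.0939). FADS1 did pass without shScramble replicate 1 (-0.34, limma adjusted p = 0.0232), against second-kind controls alone, which it did not overlap (-0.40, limma adjusted p = 0.00875), and with library kind as a term (-0.34, limma adjusted p = 0.0217). At 24 h shFLI1 gave FADS1 14176 ± 1229, against 12912 ± 1926 in shScramble libraries, and FADS2 8542 ± 645, against 7873 ± 762 in shScramble libraries, neither called. Over 21 alternatives there, FADS1 passed in 2 and FADS2 in 1, with highest values of 0.32 and 0.29. FADS2 at 24 h had 6116, 5965 and 6505 in shCHD4#2 libraries, below the 7119 to 9043 of shScramble libraries (log2 -0.34 ± 0.09, limma adjusted p = 0.0251). This call was lost without shCHD4#2 replicate 1 (limma adjusted p = 0.0721) or 2 (limma adjusted p = 0.127) and without shScramble replicate 3 (limma adjusted p = 0.0532), and among second-kind libraries (-0.31, limma adjusted p = 0.296), and passed among first-kind ones (-0.31, limma adjusted p = 0.0472). With shCHD4#1 at 48 h FADS2 gave -0.33 (limma adjusted p = 0.0517), with -0.38 (limma adjusted p = 0.0274) without shScramble replicate 1 and -0.35 (limma adjusted p = 0.0478) without replicate 2, and FADS1 -0.28 (limma adjusted p = 0.122), with -0.36 (limma adjusted p = 0.0361) without shScramble replicate 1.

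A pair of library properties moved with shFLI1 at both times. At 24 h the mitochondrial rRNA took 18.0% to 19.9% of reads in shFLI1 libraries, against 15.2% to 17.8% in shScramble libraries, and the 10 most abundant genes took 23.8% to 25.8% in shFLI1 libraries, against 20.7% to 22.4% in shScramble libraries. At 48 h the mitochondrial rRNA took 22.1% to 22.5% of reads in shFLI1 libraries, against 16.2% to 18.0% in shScramble libraries, and the 10 most abundant genes took 28.9% to 30.5% in shFLI1 libraries, against 20.6% to 22.7% in shScramble libraries. Centring each library on its median put the median of all genes at -0.11 at 48 h, against 0.01 as deposited. On that scale FADS1 also passed (-0.38, limma adjusted p = 0.017), and no gene of the 9 changed direction. Other settings gave smaller falls. Over 21 alternatives at 48 h FASN ran from -1.07 to -0.67, ACLY from -1.26 to -0.80 and SCD from -1.81 to -1.38. The part of these library properties in the results was not tested.

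Per kilobase of exon the genes spanned a wide range in control cells at 48 h. In shScramble libraries SCD had 5381 ± 1013 normalised counts per kb, ACLY 4583 ± 793, FASN 2844 ± 246, ELOVL5 2740 ± 580, FADS1 1283 ± 173, ACACA 977 ± 68.4, FADS2 718 ± 77.6, ACSS2 41.2 ± 2.07 and ELOVL6 10.9 ± 3.69 (SD, n = 5). Among neighbours in that order, SCD and ACLY, FASN and ELOVL5, and FADS1 and ACACA overlapped between libraries. In shFLI1 libraries at 48 h SCD had 1733 ± 252 per kb, below ACLY at 2165 ± 332 and ELOVL5 at 2078 ± 48.7, and ACSS2 and ELOVL6 had 221 ± 33.8 and 52.9 ± 3.33. In shCHD4#2 libraries SCD had 1736 ± 124 per kb and ACLY 3463 ± 182. The summed normalised counts of the 9 genes were 66979 ± 7792 in shFLI1, 100396 ± 8128 in shCHD4#1 and 83335 ± 895 in shCHD4#2 libraries, against 123907 ± 15462 in shScramble libraries.

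**Figure D3:**
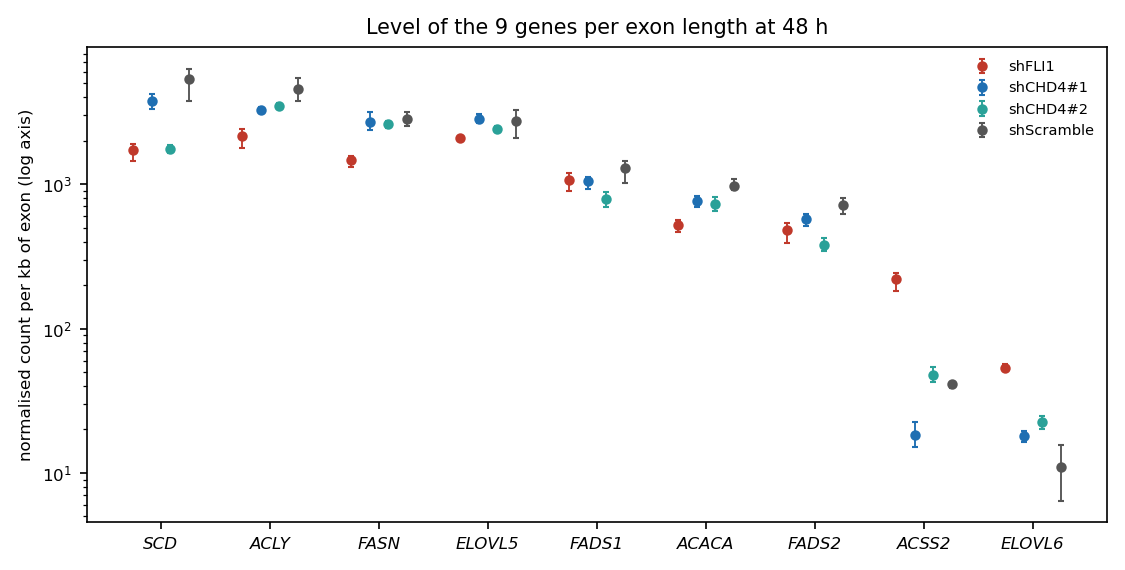
Normalised count per kilobase of exon (log axis) of the 9 genes at 48 h, by hairpin; points are means and bars run from the lowest to the highest library. SCD is highest in shScramble at 5381 and stands at 1733 in shFLI1, while ACSS2 and ELOVL6 lie lowest in every group.

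The difference between the CHD4 hairpins in these genes was tested directly. CHD4 itself stood at 2959 to 3482 normalised counts with shCHD4#1 and at 2722 to 2801 with shCHD4#2 at 48 h, without overlap (log2 difference 0.21 ± 0.11, limma adjusted p = 0.164). At 24 h 2 of the 9 genes differed, where 9.62% of all genes did: ACSS2 was lower with shCHD4#1 than with shCHD4#2 (log2 difference -0.88 ± 0.18, limma adjusted p = 0.00776) and SCD was higher (0.81 ± 0.11, limma adjusted p = 0.000589). At 48 h 4 differed, where 37.9% of all genes did. ACSS2 averaged 98.6 ± 21.2 normalised counts with shCHD4#1 and 258 ± 29.7 with shCHD4#2 (log2 difference -1.39 ± 0.16, limma adjusted p = 3.56e-05). SCD averaged 20321 ± 2555 with shCHD4#1 and 9311 ± 665 with shCHD4#2 (1.12 ± 0.17, limma adjusted p = 0.000218), and FADS2 6282 ± 561 and 4184 ± 446 (0.59 ± 0.13, limma adjusted p = 0.00354). FADS1 differed by 0.41 ± 0.15 (limma adjusted p = 0.04), a call lost without shCHD4#1 replicate 2 (limma adjusted p = 0.126) or 3 (limma adjusted p = 0.112) or shCHD4#2 replicate 2 (limma adjusted p = 0.164) or 3 (limma adjusted p = 0.0797). For FASN, ACACA, ACLY, ELOVL5 and ELOVL6 the 95% intervals at 48 h included 0, and that of FASN ran from -0.21 to 0.29.

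Set against the mean of both CHD4 hairpins, shFLI1 differed in 5 of the 9 genes at 24 h, where 52.9% of all genes differed, and in 7 at 48 h, where 65.7% did. At 48 h ACSS2 was 7.41-fold and ELOVL6 2.63-fold higher with shFLI1 (limma adjusted p = 6.7e-10 and 6.62e-05). ACLY, SCD and ACACA were lower by log2 differences of -0.64, -0.57 and -0.51, and FADS1 and FADS2 were not called, with intervals of -0.05 to 0.50 and -0.20 to 0.30. ELOVL5 passed at -0.33 (limma adjusted p = 0.0432), a call lost without any of the 3 shFLI1 replicates (limma adjusted p = 0.0814, 0.113 and 0.0915), without shCHD4#1 replicate 1 or 2 (0.057 and 0.0821) or shCHD4#2 replicate 1 or 2 (0.0702 and 0.0646). At 24 h ACSS2 (1.35) and FADS2 (0.35, limma adjusted p = 0.00397) were higher with shFLI1, and FASN, ACACA (-0.33, limma adjusted p = 0.022) and SCD (-0.28, limma adjusted p = 0.0227) were lower. Those of ACACA and SCD were lost without shFLI1 replicate 2 (limma adjusted p = 0.0881 and 0.0762) or 3 (limma adjusted p = 0.0784 and 0.106). All shFLI1 libraries are of the second kind, while both CHD4 groups hold libraries of each kind. Over 12 alternatives at 24 h, library kind as a term among them, ACACA was called in 8. Its values ran from -0.42 to -0.14, with limma adjusted p up to 0.113. ACLY, not called in the reported fit, passed in 3, with values down to -0.45. ELOVL5 passed in 2, and ELOVL6 and FADS1 in 1 each. At 48 h FADS1 passed in 2 of 12.

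Time was tested as the fold change against shScramble at 48 h minus that at 24 h. In this test a replicate was left out by its number, from all groups at both times. With shFLI1, 6 of the 9 genes changed between the times, where 16.7% of all genes did: ACSS2 and ELOVL6 rose further, by 1.35 ± 0.22 (limma adjusted p = 7.68e-05) and 1.24 ± 0.34 (limma adjusted p = 0.0133), and SCD (-0.84 ± 0.18, limma adjusted p = 0.00203), FADS2 (-0.69 ± 0.15, limma adjusted p = 0.00176), ACLY (-0.57 ± 0.18, limma adjusted p = 0.0322) and FASN (-0.52 ± 0.13, limma adjusted p = 0.00675) fell further. The ACLY change was lost without replicate 1, 2, 3 or 4 (limma adjusted p = 0.13, 0.0644, 0.215 and 0.0702), that of ELOVL6 without replicate 1 or 2 (limma adjusted p = 0.128 and 0.0579), and those of FASN and SCD without replicate 3 (limma adjusted p = 0.0553 and 0.057). FADS2 thus had a value of 0.12 at 24 h and of -0.57 at 48 h with shFLI1. With shCHD4#1 none of the 9 changed in limma between the times, where 0.00476% of all genes did and 881 genes had an unadjusted p under 0.05; SCD (-0.40) had an unadjusted p of 0.039 and the other 8 were above 0.05. With shCHD4#2 none passed either, where 0.989% of all genes did, and 3059 genes had an unadjusted p under 0.05. SCD (-0.71), FADS1 (-0.68) and FADS2 (-0.58) had limma adjusted p of 0.0567, 0.0656 and 0.0567. With the replicate block these were 0.0277, 0.0261 and 0.0337, and without replicate 1 SCD (0.0331) and FADS1 (0.0394) passed. In the controls no gene passed between 48 and 24 h in limma, 485 genes had an unadjusted p under 0.05, and none of the 9 genes moved by more than 0.12.

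For each gene, the non-member genes with the most similar pattern over the 8 group means were sought by root mean square distance on the log2 scale, among 14207 candidates. The distance is a description and was not tested. SCD was closest to ABRACL (0.107) and HMGB1P10 (0.141), and ACSS2 to DPYD (0.183) and RBMS3 (0.202). ELOVL6 was closest to LAMB2 (0.163) and SLC4A3 (0.172), ELOVL5 to DCUN1D1 (0.0472) and UBA3 (0.0494), and FASN to MTREX (0.0416) and METAP1 (0.0482). ACACA was closest to MCUR1 (0.0518) and TTLL4 (0.0544), ACLY to HNRNPA2B1 (0.0624) and SNRNP40 (0.0633), FADS1 to MDFI (0.0869) and PGD (0.0915), and FADS2 to IDH1 (0.0438) and HINT1 (0.0657). IDH1 and PGD encode cytosolic enzymes that make NADPH. Among the 9 genes themselves the closest pairs were ACLY with ACACA (0.0742), ACACA with FASN (0.130) and FADS1 with FADS2 (0.134).

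The regulators of this pathway were read from a list of 17 genes of the SREBP system and other lipogenic factors. For this and the lists below, the shares of all tested genes called at 24 and 48 h were 46.7% and 63.9% with shFLI1. They were 11.3% and 28.4% with shCHD4#1, and 11.1% and 37.9% with shCHD4#2. No list was tested as a set. With shCHD4#2 3 of the 17 rose and 8 fell at 48 h, and 4 fell at 24 h; among first-kind libraries alone 5 passed at 48 h. SREBF2, the sterol-responsive factor, had 3524, 3177 and 2893 normalised counts in shCHD4#2 libraries at 48 h, against 7307, 9518, 8091, 8446 and 7589 in shScramble libraries (log2 -1.35, limma adjusted p = 2.03e-06). INSIG1, which retains the SREBP precursors in the endoplasmic reticulum and is itself an SREBP target, had 832, 660 and 533 in shCHD4#2 libraries, against 2165, 2509, 3608, 3296 and 3181 in shScramble libraries (log2 -2.13, limma adjusted p = 1.3e-05). Neither overlapped the controls. SREBF1, whose products drive fatty acid genes, fell as well (log2 -0.89, limma adjusted p = 0.00214), as did NFYA, a subunit of NF-Y (-1.03, limma adjusted p = 6.06e-06). With shCHD4#1 at 48 h SREBF1 (-0.30, limma adjusted p = 0.269) and SREBF2 (-0.19, limma adjusted p = 0.263) were not called, and both were higher than with shCHD4#2 (log2 differences 0.60, limma adjusted p = 0.039, and 1.17, limma adjusted p = 2.92e-05). INSIG1 was higher than with shCHD4#2 by 1.62 (limma adjusted p = 0.000346). In shCHD4#1 4 of the 17 fell at 48 h, MBTPS1 among them (-0.42, limma adjusted p = 0.00646), a protease that cleaves SREBPs, and 2 fell at 24 h.

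With shFLI1 6 of the 17 rose and 3 fell at each time, where 46.7% of all genes were called at 24 h and 63.9% at 48 h. SREBF1 had 5916, 5027 and 4861 normalised counts in shFLI1 libraries at 24 h, against 2840, 4698, 2635, 2581 and 2461 in shScramble libraries (log2 0.83, limma adjusted p = 0.00292), and 2233, 2583 and 2123 in shFLI1 libraries at 48 h, against 2387, 4508, 3363, 2773 and 2424 in shScramble libraries (-0.38, limma adjusted p = 0.0945). shScramble replicate 2 was the highest control at both times. The fall between the times was past the test (-1.21, limma adjusted p = 0.00427). SREBF2 was higher at both times (0.39, limma adjusted p = 0.00663, and 0.52, limma adjusted p = 0.00152), as was NR1H3, the oxysterol receptor LXR-alpha (0.75 and 0.82, limma adjusted p = 0.000536 and 8.44e-05). MLXIPL, the carbohydrate-responsive factor ChREBP, was lower at 48 h (-3.96, limma adjusted p = 3.91e-07).

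**Figure D4:**
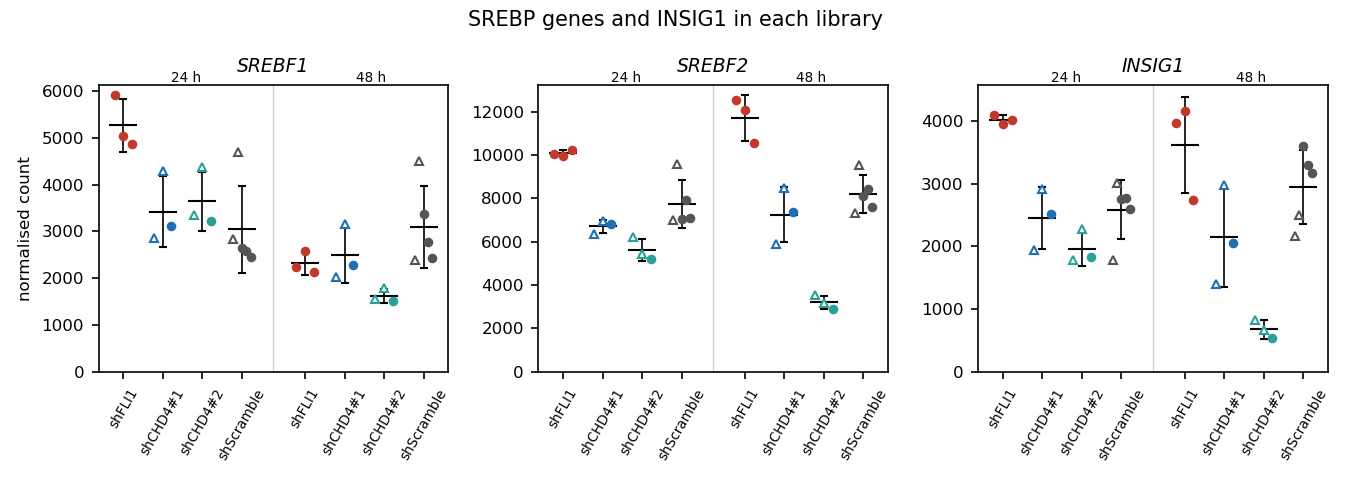
Normalised counts of SREBF1, SREBF2 and INSIG1 in each library (y axis, from 0) by hairpin at 24 and 48 h, with symbols as in the plot of the 9 genes and bars for mean and SD. With shCHD4#2 at 48 h INSIG1 lay at 533 to 832, below the 2165 to 3608 of shScramble.

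Genes of cholesterol synthesis and uptake, which share the SREBP factors, fell together with shCHD4#2. Of 10 such genes 6 were called lower at 24 h and 10 at 48 h, with a median log2 of -1.20 at 48 h, where that of all genes was 0.01. The shares of all genes called lower with this hairpin were 7.01% and 20.3%. HMGCS1, which makes HMG-CoA, had a log2 fold change of -1.79 (limma adjusted p = 2.39e-06) and the sterol carrier STARD4 one of -2.03 (limma adjusted p = 3.06e-06), and SQLE, squalene epoxidase, fell as well (limma adjusted p = 7.42e-06). All 10 were called without any single library, and 7 among first-kind libraries alone. In shCHD4#1 cells 1 was higher and 1 lower at 24 h, and 4 were lower at 48 h, with SQLE at -1.03 (limma adjusted p = 0.000255); with the replicate block 1 was called lower at 48 h. With shFLI1 3 were higher and 1 lower at 24 h, and 2 higher and 3 lower at 48 h: STARD4 was among those higher (1.37, limma adjusted p = 1.66e-05).

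**Figure D5:**
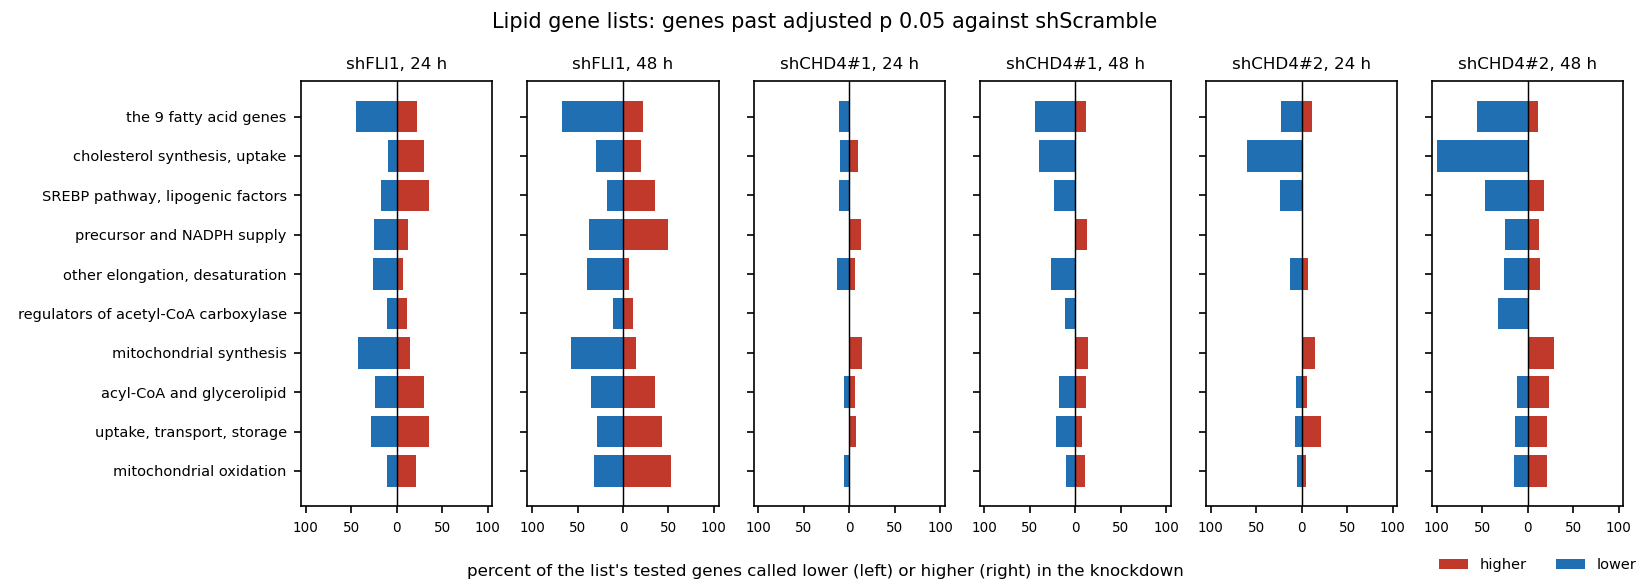
Percent of the tested genes of each lipid gene list called lower (left) or higher (right) in each knockdown against shScramble. The list of cholesterol genes is wholly lower with shCHD4#2 at 48 h, where 10 of 10 passed.

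Of 8 genes that supply precursors and NADPH, 1 rose and 2 fell with shFLI1 at 24 h, and 4 rose and 3 fell at 48 h. The shares of all genes called there were 46.7% and 63.9%. ACSS1, the mitochondrial acetyl-CoA synthetase, was higher with shFLI1 at 48 h (3.46, limma adjusted p = 1.78e-06), and ME1, the cytosolic malic enzyme that yields NADPH, was lower (-1.63, limma adjusted p = 2.12e-07). ACSS1 was also the gene of the list that rose with shCHD4#1 at 24 h (1.55, limma adjusted p = 0.0329) and 48 h (1.80, limma adjusted p = 0.00277). With shCHD4#2 none of the 8 passed at 24 h, and 1 rose with the replicate block. At 48 h ACSS1 rose (1.04, limma adjusted p = 0.0419) while the NADPH-making IDH1 (-0.87, limma adjusted p = 0.00173) and PGD (-0.58, limma adjusted p = 0.0144) fell.

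The remaining elongation and desaturation genes numbered 15 tested of 17. Over all genes, 46.7% were called with shFLI1 at 24 h and 63.9% at 48 h. With shFLI1 1 rose and 4 fell at 24 h, including FADS3 (-1.34, limma adjusted p = 5.82e-08), and 1 rose and 6 fell at 48 h, including ELOVL2 (-1.05, limma adjusted p = 3.73e-08), an elongase of very long polyunsaturated chains. In shCHD4#1 cells 1 rose and 2 fell at 24 h, and 4 fell at 48 h; with shCHD4#2 1 rose and 2 fell at 24 h, and 2 rose and 4 fell at 48 h. SCD5, the second human stearoyl-CoA desaturase, fell with shCHD4#1 (-0.93, limma adjusted p = 0.00176) and shCHD4#2 (-0.83, limma adjusted p = 0.00264) at 48 h. ELOVL2 fell with shCHD4#2 (-0.81, limma adjusted p = 4.11e-06). Of 9 tested genes that regulate acetyl-CoA carboxylase or encode its mitochondrial form, 1 rose and 1 fell with shFLI1 at each time, none passed at 24 h with a CHD4 hairpin, 1 fell with shCHD4#1 and 3 fell with shCHD4#2 at 48 h. With the replicate block 1 of these 9 rose with each CHD4 hairpin at 24 h and 1 fell with shCHD4#2 at 48 h. ACACB, the mitochondrial form, was lower with shCHD4#2 (-1.18, limma adjusted p = 7.17e-05) and with shFLI1 (-0.54, limma adjusted p = 0.0088) at 48 h.

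Of 7 genes of mitochondrial fatty acid synthesis, 1 rose and 3 fell with shFLI1 at 24 h and 1 rose and 4 fell at 48 h, with the enoyl reductase MECR at -1.07 (limma adjusted p = 1.04e-08). In shCHD4#1 cells 1 rose at each time, and with shCHD4#2 1 rose at 24 h and 2 at 48 h; ACSF3, a malonyl-CoA synthetase, was among them each time (0.54, limma adjusted p = 0.000319, with shCHD4#1 and 0.70, limma adjusted p = 2.34e-05, with shCHD4#2 at 48 h). With the replicate block 2 rose with shCHD4#2 at 24 h. Of 17 tested genes of acyl-CoA activation and glycerolipid synthesis, 5 rose and 4 fell with shFLI1 at 24 h and 6 rose and 6 fell at 48 h. For this list and that of mitochondrial synthesis, the shares of all genes called with shFLI1 were 46.7% and 63.9%. LPIN2, a phosphatidate phosphatase, rose (2.58, limma adjusted p = 4.92e-09). In shCHD4#1 cells 1 rose and 1 fell at 24 h and 2 rose and 3 fell at 48 h, and with shCHD4#2 1 rose and 1 fell at 24 h and 4 rose and 2 fell at 48 h, where LPIN1 was lower (limma adjusted p = 7.41e-05). LPIN1 was higher with shFLI1 at 48 h (1.31, limma adjusted p = 1.14e-06).

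Of 14 tested genes of fatty acid uptake, transport and storage, 5 rose and 4 fell with shFLI1 at 24 h and 6 rose and 4 fell at 48 h. Over all genes, 46.7% and 63.9% were called at these times. MGLL, monoglyceride lipase, rose (2.42, limma adjusted p = 3.57e-07) and FABP5, a fatty acid-binding protein, fell (-1.91, limma adjusted p = 3.03e-07). In shCHD4#1 cells 1 rose at 24 h, and 1 rose and 3 fell at 48 h; with shCHD4#2 3 rose and 1 fell at 24 h, and 3 rose and 2 fell at 48 h. PNPLA2, the triglyceride lipase ATGL, rose with shCHD4#1 (0.91, limma adjusted p = 0.000684) and with shCHD4#2 (limma adjusted p = 1.86e-05) at 48 h. The replicate block gave 2 higher and 1 lower with shCHD4#1 at 24 h. Of 19 tested genes of mitochondrial oxidation, 4 rose and 2 fell with shFLI1 at 24 h and 10 rose and 6 fell at 48 h, beside the same shares of all genes. ACADS, the short-chain acyl-CoA dehydrogenase, rose (0.73, limma adjusted p = 1.35e-05) and HADH, which acts later in the spiral, fell (-0.73, limma adjusted p = 5.48e-06). In shCHD4#1 cells 1 fell at 24 h, and 2 rose and 2 fell at 48 h; with shCHD4#2 1 rose and 1 fell at 24 h, and 4 rose and 3 fell at 48 h. With the replicate block none was called with shCHD4#1 and 1 rose with shCHD4#2 at 24 h, and 1 fell with shCHD4#1 at 48 h.

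Markers of the cell type were read beside these genes. All 10 Ewing sarcoma markers were present, 9 of them fell with shFLI1 at 24 h and 10 at 48 h, and their summed normalised count was 23484 to 30522 in shFLI1 libraries, against 70620 to 110871 in shScramble libraries at 48 h. The shares of all genes called lower with shFLI1 were 22.5% at 24 h and 31.7% at 48 h. With shCHD4#2 8 of the 10 fell at 48 h and with shCHD4#1 3, where 20.3% and 15.5% of all genes were called lower. FLI1 itself fell with shCHD4#2 at that time (log2 -0.34), and its part in the results was not tested. Of 10 adipocyte markers 2 reached the minimum for testing, PLIN1 and PPARG. PPARG, the adipogenic nuclear receptor, rose with shFLI1 at 48 h (1.83, limma adjusted p = 2.94e-05), and PLIN1 was not called (0.47, limma adjusted p = 0.158). The summed level of the list was 296 to 673 in shFLI1 libraries, against 121 to 169 in shScramble libraries. PPARG itself accounted for 241, 368 and 482 of the sums in shFLI1 replicates 1, 2 and 3. The highest sum was that of shFLI1 replicate 3. LPL, lipoprotein lipase, had 0, 1.15 and 120 normalised counts in shFLI1 replicates 1, 2 and 3, and FABP4, a fatty acid carrier of adipocytes, had 1.18, 3.45 and 16.6. Both were at most 5.93 in each of the other 25 libraries. ADIPOQ, CIDEC and CIDEA were at most 3.61, 3.54 and 2.71 in any library. AQP7, also below the minimum for testing, had 4.72, 4.60 and 6.23 in shFLI1 libraries at 48 h. It had 6.64, 10.7 and 11.9 in shCHD4#1 libraries at 48 h, against 0, 1.03, 0, 0.933 and 0 in shScramble libraries. The shFLI1 calls of the 9 genes at 48 h without shFLI1 replicate 3 are given with the results where they changed. Of 7 hepatocyte markers 1 was tested, APOC3, which rose with shFLI1 at 24 h (0.65, limma adjusted p = 0.01) and 48 h (0.89, limma adjusted p = 0.0167) and did not pass with either CHD4 hairpin.

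The authors' deposited tables were read for 5 of the 6 knockdown groups. At an adjusted p under 0.05, the authors' deposited table calls 6 of the 9 genes for shFLI1 at 48 h (FASN, ACACA, ACLY, ACSS2, SCD and ELOVL6), 2 for shCHD4#2 (SCD and FADS2) and 1 for shCHD4#1 (ACSS2), and none for the CHD4 hairpins at 24 h. Of all genes with an adjusted p in the authors' deposited table, 20.9% were called for shFLI1 at 48 h, 5.81% for shCHD4#2 and 3.24% for shCHD4#1. At 24 h, 0.671% were called in that for shCHD4#1 and 0.527% in that for shCHD4#2. In these tables the unadjusted p-value is exactly 1 for 36.9% to 68.8% of genes, which limits how they can be compared with the counts above. ACACA with shCHD4#2 at 48 h was not called there at a log2 of -0.479 with an SE of 0.061. These p-values are thus not from a plain test against no change, and the authors' calls and those in limma answer different questions. The setting of the authors' test is not given in the sources used here.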

How the data were processed

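Total RNA of 28 SK-N-MC libraries was sequenced paired-end from stranded total-RNA libraries, per the labels. The authors deposited normalised counts (a signal, counts divided by a size factor) for 24 h and 48 h. Their tables of comparisons hold log2 fold changes, standard errors, p-values and adjusted p-values, per the file headers. Test scores are given only in that named for shFLI1 at 24 h. The submitters' processing notes name FastQC 0.11.7, HISAT2 2.1.0, SAMtools 1.7, featureCounts 1.6.0, DESeq2 1.34.0 and GRCh38; the sources used here do not state parameters, annotation release or strand setting. One comparison table, whose name gives shFLI1 at 24 h, was not used for shFLI1, because its values differ from those of shScramble at 48 h against 24 h by a median of 0.00315 on the log2 scale, and from those of shFLI1 at 24 h by 0.326.

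Here log2(normalised count + 1) was tested with limma 3.58.1 (trend) in R 4.3.3, for the 21025 genes that averaged 10 or more over the 28 libraries. The 14 libraries of a time were fitted as 4 groups, the contrasts between times in all 28 libraries as 8 groups, and p-values were adjusted by Benjamini-Hochberg over all tested genes, with calls at 0.05. Fold changes on this scale understate those of low genes. Whole reads were recovered for 100% of values within a tolerance of 0.02, and edgeR 4.0.16 and DESeq2 1.42.0 on these reads were alternatives. With shFLI1 at 48 h edgeR called 13526 and DESeq2 13446 genes, where limma called 13429. The tools differed more with the CHD4 hairpins at 24 h. There edgeR called 2435 and DESeq2 3125 genes with shCHD4#1, where limma called 2385. With shCHD4#2 edgeR called 2324 and DESeq2 2971, where limma called 2325. Alternative pseudocounts, filters, scalings, library kinds, left-out replicates and a replicate block were also run. Code was tested on simulated data. Deviations of same-numbered CHD4 hairpin and shScramble libraries correlated at 0.137 to 0.695 over 14216 genes. For replicates 1 and 2 the control of the same number correlated best each time. For replicate 3 another second-kind control did, so a pairing of replicate 3 was not shown. In these groups replicates 1 and 2 are first-kind and replicate 3 is second-kind, and likeness by kind alone would also give positive correlations. Same-numbered shFLI1 and shScramble libraries correlated at -0.211 to 0.125. No library was a copy of another: replicates of a group differed by a chi-square per gene of 8.72 to 149 over 38 pairs. Levels per kb use GENCODE 29 exon lengths. Named genes of the other lists are up to 3 per comparison with the smallest adjusted p, with SREBF1 and SREBF2 always included; INSIG1 was added at 24 h and for the differences after its 48 h value was seen. The 9 genes and all lists were chosen with earlier results of these data known. Values of some single genes of the other lists are not reported here.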

Additional observations from a re-analysis of the deposited data

Results flagged for a closer look

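The fold change of 6 genes with shFLI1 differed between 48 and 24 h by the interaction test in limma, as log2 values of 48 h minus 24 h: FASN -0.52, ACLY -0.57, ACSS2 1.35, SCD -0.84, ELOVL6 1.24 and FADS2 -0.69. The direction of FADS2 against shScramble was 0.12 at 24 h and -0.57 at 48 h. Between the CHD4 hairpins, shCHD4#1 minus shCHD4#2, ACSS2 differed by -0.88 and SCD by 0.81 at 24 h. At 48 h ACSS2 differed by -1.39, SCD by 1.12, FADS1 by 0.41 and FADS2 by 0.59. No shScramble library of the 9 genes stood apart from the rest of its group by Dixon's test in 18 groups tested.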

How the results depend on the processing

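The calls of FASN, ACACA, ACLY, ACSS2, SCD and ELOVL6 with shFLI1 at both times, and of FADS2 at 48 h, held in 21 of 21 alternatives, and those of SCD and FADS2 with shCHD4#2 at 48 h in 22 of 22. Of 1845 gene values under alternatives, 79 lost a call, 44 gained one and 54 changed direction, and 0 of those 54 were called. The cause was not tested for any value below.

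Gene counts over the whole table moved as follows. With only the 2 groups compared in the fit, 1499 genes were called with shCHD4#1 and 1267 with shCHD4#2 at 24 h, against 2385 and 2325 in the reported fits. With library kind as a term, 4531 and 4684 were called with these hairpins, and 4455 between them, against 2022. Among second-kind libraries 1010 and 751 were called with the hairpins at 24 h, and 5274 for shFLI1 at 48 h minus 24 h, against 3503. Among first-kind libraries 1215 were called with shCHD4#1 at 48 h, against 5965, and 2974 with shCHD4#2, against 7964. For 48 h minus 24 h with shCHD4#1, where 1 gene was called, 0 were with a pseudocount of 5 or among second-kind libraries. With shCHD4#2, where 208 were called, 337 were after quantile normalisation, 650 with the replicate block and 133 among second-kind libraries.

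Of the 9 genes, 2 were called with shCHD4#1 at 24 h with the replicate block, with the kind term or among first-kind libraries, against 1. With shCHD4#2 at 24 h 1 was called among second-kind libraries, against 3. With shCHD4#1 at 48 h 3 were called after quantile normalisation, 3 with the block and 1 among first-kind libraries, against 5. With shCHD4#2 at 48 h 3 were called among first-kind libraries, against 6. For 48 h minus 24 h with shCHD4#2, 2 were called after median centring, 3 after quantile normalisation and 3 with the block, against 0.

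With single replicates left out, 7771 to 10029 genes and 6 to 6 of the 9 were called with shFLI1 at 24 h, and 12115 to 13512 genes and 7 to 9 of the 9 at 48 h. The ranges were 908 to 2851 and 0 to 1 with shCHD4#1 at 24 h, lowest without its replicate 2, and 3699 to 6488 and 2 to 7 at 48 h. They were 886 to 2321 and 1 to 3 with shCHD4#2 at 24 h, with fewest genes without its replicate 2, and 5296 to 8294 and 5 to 6 at 48 h. Between the CHD4 hairpins they were 874 to 1721 and 2 to 2 at 24 h, with 874 without shCHD4#1 replicate 2, 991 without shCHD4#2 replicate 2 and 1285 without shCHD4#1 replicate 3, and 5792 to 8648 and 3 to 4 at 48 h. For shFLI1 against the mean of the CHD4 hairpins they were 8996 to 11220 and 3 to 5 at 24 h, with 3 without shFLI1 replicate 2 or 3, and 12429 to 13752 and 6 to 7 at 48 h. For 48 h minus 24 h a replicate number was left out of all groups at both times. The ranges were then 1836 to 3464 and 3 to 6 with shFLI1, with 1836, 2234 and 1991 genes without replicate 1, 2 and 3. They were 0 to 1 and 0 to 0 with shCHD4#1. With shCHD4#2 they were 0 to 313 and 0 to 2, with 313 genes without replicate 1 and 0 without replicate 3.

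Directions that changed, as log2 values that were not called, were these. After quantile normalisation ELOVL5 with shFLI1 at 24 h was 0.027, and with shCHD4#1 at 24 h FASN was 0.099, SCD 0.063 and FADS1 0.048. FADS1 with shCHD4#2 at 24 h was then 0.11, FASN at 48 h 0.14 with shCHD4#1 and 0.13 with shCHD4#2, ELOVL5 with shCHD4#2 at 48 h 0.00032, and FASN at 48 h minus 24 h with shCHD4#1 0.045. FADS1 with shCHD4#2 at 24 h was 0.0031 after median centring and 0.0055 in edgeR. FADS2 between shFLI1 and the CHD4 hairpins at 48 h was -0.082 after median centring. With the kind term FADS1 at 24 h was 0.012 with shCHD4#1, 0.060 with shCHD4#2 and -0.0016 between shFLI1 and the CHD4 hairpins, and FADS2 between them at 48 h was -0.027. Among second-kind libraries ELOVL5 with shCHD4#1 was -0.063 at 24 h and -0.25 at 48 h, and with shCHD4#2 at 24 h FASN was -0.020, ACSS2 -0.26, ELOVL5 -0.19 and FADS1 0.021. Among first-kind libraries FASN was 0.053, SCD 0.015 and FADS1 0.064 with shCHD4#1 at 24 h, FADS1 0.10 with shCHD4#2 at 24 h, FASN 0.061 with shCHD4#1 at 48 h and ELOVL5 0.23 with shCHD4#2 at 48 h. Leaving out single replicates, FADS1 at 24 h ranged over -0.13 to 0.013 with shCHD4#1 and -0.096 to 0.061 with shCHD4#2, ELOVL5 over -0.039 to 0.079 with shCHD4#2 at 24 h and -0.029 to 0.14 with shCHD4#1 at 48 h, and FASN over -0.19 to 0.012 with shCHD4#1 at 48 h. Between the CHD4 hairpins ACLY ranged over -0.049 to 0.089 and FADS1 over -0.12 to 0.034 at 24 h, and ACACA over -0.026 to 0.13 and FASN over -0.074 to 0.13 at 48 h. FADS2 between shFLI1 and the CHD4 hairpins at 48 h ranged over -0.033 to 0.19. For 48 h minus 24 h a replicate number was left out of all groups. FASN then ranged over -0.11 to 0.024 and ELOVL6 over -0.074 to 0.34 with shCHD4#1. With shCHD4#2 ACSS2 ranged over -0.13 to 0.19 and ELOVL6 over -0.23 to 0.30.

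With the replicate block FADS1 at 24 h was 0.040 with shCHD4#1 and 0.088 with shCHD4#2. The shFLI1 libraries share only numbers with the controls, and none correlated best with its own number. Under the block ELOVL5 at 48 h was -0.23 (limma adjusted p = 0.185) and lost its call, and FADS1 at 24 h (0.25, limma adjusted p = 0.0426) and ACACA at 48 h minus 24 h (-0.35, limma adjusted p = 0.00535) gained one. The block changed no other call of the 9 genes beyond those given with the results.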
